A study of Homo sapiens with 6 samples.

Results

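The genes described here are 49 interferon response genes, the transcripts that vertebrate cells induce after an interferon binds its receptor. They were given as a list of symbols, and all 49 were found once among the 59520 named gene models (66351 gene models in all) of an RNA-Seq table. The table covers 6 libraries made from the line SAS-Fucci, human tongue squamous carcinoma cells that express a fluorescent cell-cycle reporter. In 2 libraries the cells had received IGFBP3 siRNA #1 for 72 h, in 2 the same siRNA for 48 h, and in 2 a non-targeting siRNA (Cont). The siRNAs were transfected with the same lipid reagent at the same concentration, so all 6 libraries come from transfected cells and a response to transfection that the groups share cannot be seen. The 72 h cells had their medium exchanged after 48 h, and the 48 h cells did not. IGFBP3 was also less depleted at 72 h (values below), so time, fresh medium and depth of knockdown cannot be told apart. The sources used here do not give the time at which the Cont cells were harvested, nor whether libraries of 1 group are separate cultures. The p-values below therefore measure the spread between these libraries, which may be technical. IGFBP3 siRNA #1 was the only IGFBP3 siRNA sequenced, and the data do not separate loss of IGFBP3 from other effects of that siRNA.

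Type I and type III interferons bind receptors that activate the kinases JAK1 and TYK2, which phosphorylate STAT proteins. STAT2 and IRF9 belong to a complex that binds the interferon-stimulated response element (ISRE) in the promoters of its target genes, while interferon gamma acts mainly through gamma-activated sites (GAS). The induced proteins sense viral RNA, block its translation, degrade it, hold viruses at membranes or attach the ubiquitin-like protein ISG15 to other proteins. Many of these genes are also transcribed at a low level in epithelial and carcinoma cells that have met no virus.

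The ISRE was looked for in the promoters because it is the sequence that these genes are known to share. RefSeq promoters (GRCh38.p14), 300 bases that run from 250 before to 50 after the start, were matched for 40 of the 49 genes. The ISRE was searched on both strands as GAAA, any 2 bases and GAAA, and it occurred in 24 of the 40 promoters (60%), against 1255 of 35116 promoters of all genes (3.57%). The GAS was searched as TTCNNNGAA, which reads the same on both strands, and it occurred in 9 of the 40 (22.5%), against 2689 of 35116 (7.66%). The windows below are those of the 8 genes that passed the test described further on in at least 1 comparison and hold an ISRE match. For each, the match farthest upstream is shown in capitals with 10 bases on either side, read in the direction of transcription, and runs of TTTC mark a match on the opposite strand.
IFIT1: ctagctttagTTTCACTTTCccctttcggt
IFIT3: agccgttaggTTTCATTTTCctcctcccaa
IFIT5: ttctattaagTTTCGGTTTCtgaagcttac
GBP1: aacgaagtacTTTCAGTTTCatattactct
DTX3L: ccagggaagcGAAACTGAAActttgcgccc
IFITM3: caaatgccagGAAAAGGAAActgttgagaa
EPSTI1: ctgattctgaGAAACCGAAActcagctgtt
SAMD9: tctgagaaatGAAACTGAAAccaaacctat

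On GRCh38.p14 these windows lie at chr10:89392497-89392526 (plus strand) for IFIT1, at chr10:89327831-89327860 (plus strand) for IFIT3 and at chr10:89414513-89414542 (plus strand) for IFIT5. The GBP1 window lies at chr1:89065316-89065345 (minus strand), and that of DTX3L at chr3:122564322-122564351 (plus strand). Those of IFITM3, EPSTI1 and SAMD9, all on the minus strand, lie at chr11:320893-320922, chr13:42992272-42992301 and chr7:93118096-93118125. IFIT1, IFIT3 and IFITM3 had 2 matches each and IFIT5 had 3, while HERC6, DDX58 and ADAR, which also passed the test, had 0. Of the promoters matched, the ISRE was found in 8 of 11 (72.7%) for genes that passed the test in some comparison, in 8 of 16 (50%) for genes tested and passing in none, and in 8 of 13 (61.5%) for genes too low to be tested. These shares describe letters in a window, not binding.

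The table gives FPKM, that is, reads assigned to a gene scaled by the length of its model and by the library total. The libraries held 17430738 to 21579563 assigned reads (median 20056214), as recovered from the steps between low FPKM. IGFBP3, the targeted gene, had 1.52 and 3.25 FPKM at 72 h and 0.261 and 0.258 FPKM at 48 h, against 24.7 and 23.1 FPKM in Cont, so the labels of the groups fit its level. Of 7 epithelial markers looked at, among them the keratin KRT5, all reached 1 FPKM in both libraries at 72 h and in Cont, and 6 did at 48 h, where KRT14 had 0.554 and 0.61 FPKM. Their summed level was 537 to 543 FPKM at 72 h and 313 to 326 FPKM at 48 h, against 583 to 677 FPKM in Cont. No leukocyte marker of 7 reached 1 FPKM in any group. Their summed level was 0.457 to 0.599 FPKM at 72 h and 0.171 to 0.337 FPKM at 48 h, against 0.321 to 0.773 FPKM in Cont, and CD3E was at 0 in all 6 libraries. Of 5 fibroblast markers, COL1A1 alone reached 1 FPKM, in the Cont libraries, and of 3 endothelial markers none did.

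The interferon response genes ranged from 0 to 196 FPKM. The highest was IFITM3, which holds entering viruses at endosomal membranes, with 171 and 188 FPKM at 72 h, 134 and 120 FPKM at 48 h, and 196 and 181 FPKM in Cont. The secreted glycoprotein gene LGALS3BP followed at 87.0 to 105 FPKM over the 6 libraries. In all, 8 of the 49 had a mean of at least 10 FPKM over the libraries, the others being UBE2L6, ADAR, TRIM25, IFI6, EIF2AK2 and OAS3. At the other end, 17 genes did not reach 1 FPKM in 2 of the 6 libraries and were not tested, and 8 of these stayed under 0.1 FPKM in every library. RSAD2, which encodes viperin and is among the transcripts most strongly induced by interferon in many cell types, had 0 reads in all 6 libraries, where 3 reads, the limit that a count of 0 allows, correspond to 0.0294 to 0.0364 FPKM. XAF1 and DHX58 had 1 read each and CMPK2 had 3 reads over all libraries. Such limits cover counting error only.

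**Figure D1:**
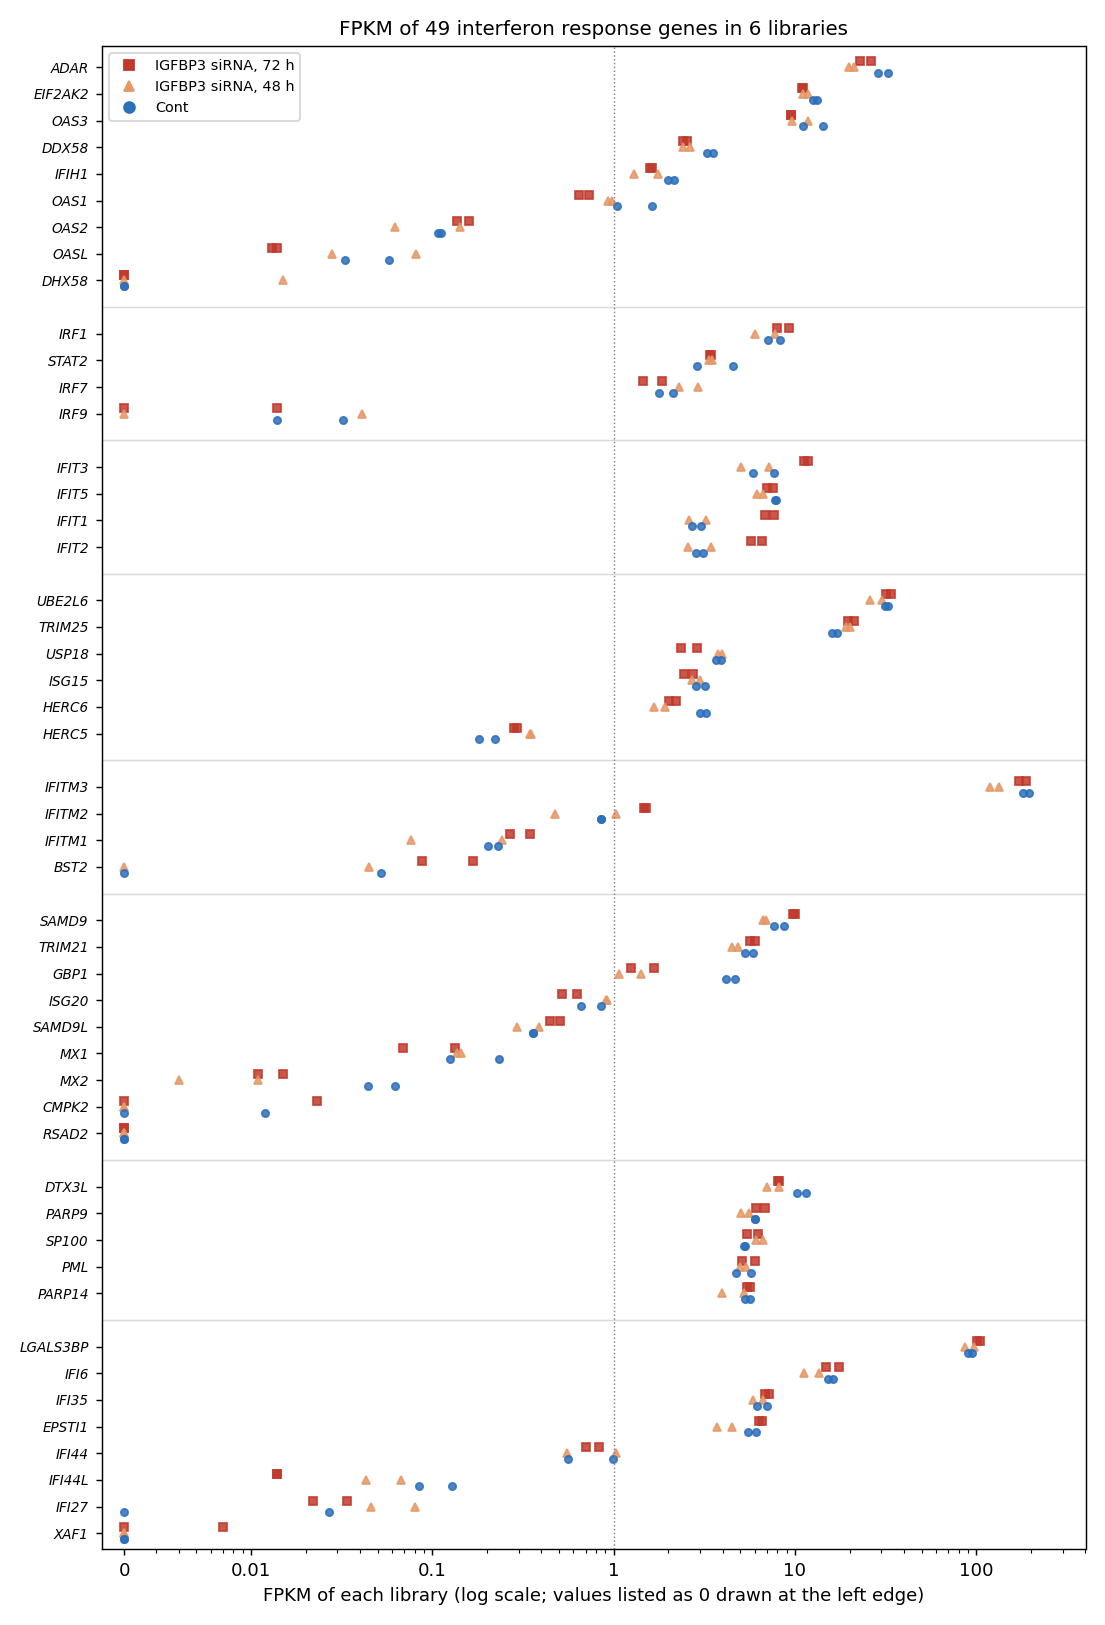
FPKM of the 49 interferon response genes (rows, grouped by role) in each library on a log axis, with values of 0 at the left edge. Squares are the 72 h libraries, triangles the 48 h libraries and circles the Cont libraries, 2 each, and the dotted line marks 1 FPKM. IFITM3 and LGALS3BP lie at the right, RSAD2 at 0 in all 6 libraries, and for IFIT1 and IFIT2 both squares lie to the right of all triangles and circles.

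The groups were compared on the log2(FPKM + 1) scale with limma, in 1 fit to all 6 libraries and to the 11214 named genes with at least 1 FPKM in at least 2 libraries. An adjusted p (Benjamini-Hochberg over the 11214 genes) under 0.05 is called lower or higher here. Because 1 is added to each value, log2 fold changes understate what happens to genes at a few FPKM. Of the 49 genes, 32 were tested, 13 of them were called in at least 1 comparison, and the other 19 had log2 fold changes from -0.46 to 0.52. Since the libraries are bulk RNA, fewer cells with a transcript and less of it per cell cannot be told apart. The same Cont libraries served both time points, so these comparisons are not independent of each other.

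At 48 h against Cont, 8 of the 32 tested genes were lower (25%) and 0 were higher, where 16.5% of all 11214 tested genes were lower and 8.38% higher. The 8 were GBP1, HERC6, IFITM3, ADAR, DTX3L, EPSTI1, DDX58 and IFIT5. At an unadjusted p under 0.05 there were 14 of the 32 genes (43.8%), beside 39.9% of all tested genes. The median log2 fold change of the 32 was -0.17, beside -0.04 over all tested genes, and 26 of the 32 values (81.2%) were below 0, beside 55.6% of all. The 8 fell to 2 without 48 h replicate 2, to 4 without Cont replicate 1, to 5 without Cont replicate 2 and to 4 with no filter on low FPKM. With quantile normalization, TRIM25 and SP100 were called higher, as they were with voom on the recovered reads, which makes 2 higher under each. Over all tested genes, quantile normalization gave 1419 lower and 1375 higher at 48 h, against 1845 lower and 940 higher without it.

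At 72 h against Cont, 5 genes were lower (15.6%), namely GBP1, HERC6, USP18, DTX3L and DDX58, and 3 were higher (9.4%), namely IFIT1, IFIT2 and IFIT3. Of all tested genes, 9.51% were lower and 3.56% higher. At an unadjusted limma p under 0.05 there were 15 of the 32 genes (46.9%), beside 29.6% of all tested genes. The median log2 fold change of the 32 was 0.02, beside -0.05 over all tested genes, and 15 of the 32 values (46.9%) were below 0, beside 59.9% of all. GBP1, HERC6, DTX3L and DDX58 were called lower at both times. Without any 1 of the Cont or 72 h libraries, or with no filter, 1 gene was lower. The 3 higher fell to 1 without Cont replicate 2 or 72 h replicate 2 and with no filter. Quantile normalization left 1 of the 5 lower (GBP1) and gave 5 higher, the 3 IFIT genes with TRIM25 and SAMD9. It gave 675 lower and 552 higher over all tested genes at 72 h, against 1066 lower and 399 higher without it.

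At 72 h against 48 h, 6 genes were higher (18.8%), namely IFIT1, IFIT2, IFIT3, SAMD9, EPSTI1 and IFITM3, and 0 were lower, where 2.19% of all tested genes were higher and 1.86% lower. IGFBP3 itself was higher at 72 h than at 48 h (log2 fold change 1.38, limma adjusted p = 0.0327), so these groups also differ in knockdown. At an unadjusted p under 0.05 there were 14 of the 32 genes (43.8%), beside 25.3% of all tested genes. Voom on the recovered reads also called 6 higher and 0 lower, while 3 were higher in the fit on these groups alone or with a replicate block, 1 with unnamed models included and 0 with no filter. The median log2 fold change of the 32 was 0.16, beside -0.01 over all tested genes. This count was taken again with each library left out in turn, where the fit also has less power. It fell to 0 without 48 h replicate 1, 48 h replicate 2 or 72 h replicate 2, to 1 without 72 h replicate 1, and to 3 without either Cont library. The number of all tested genes called higher also fell, to 0, 15, 8, 89 and at most 148 in the same order.

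**Figure D2:**
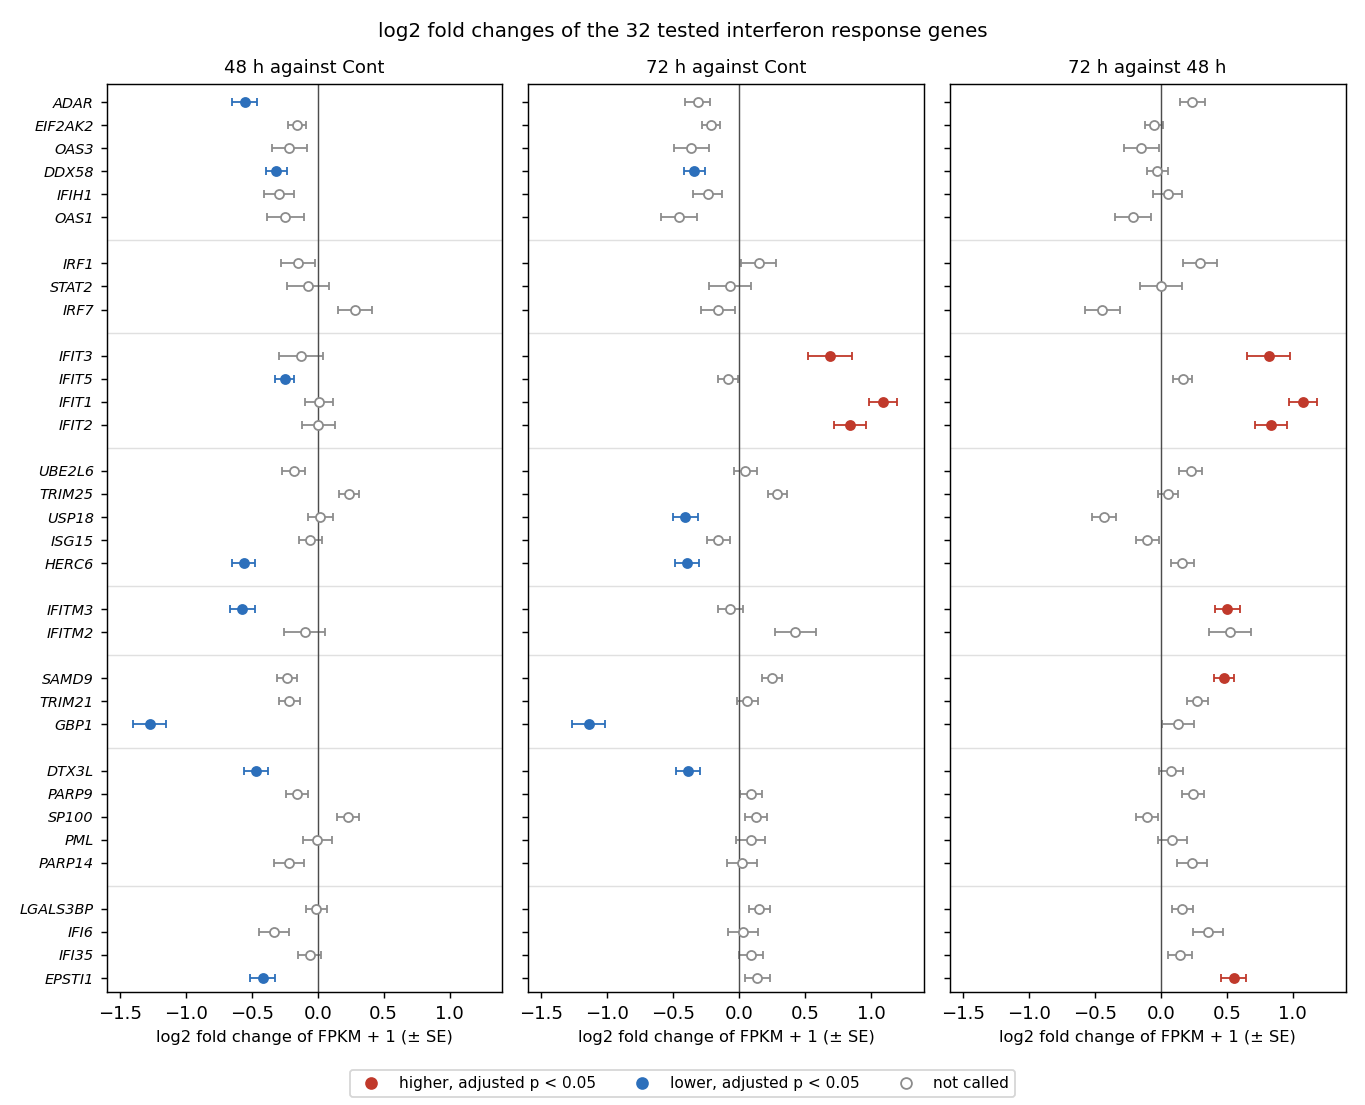
Log2 fold changes of FPKM + 1 with their standard errors (horizontal axis) for the 32 tested interferon response genes (rows, grouped by role) at 48 h against Cont, 72 h against Cont and 72 h against 48 h. Filled blue points are called lower, filled red points higher and open points are not called, at an adjusted p of 0.05 from limma. Of the genes, 8 are lower at 48 h, 5 are lower and 3 higher at 72 h, and 6 are higher at 72 h than at 48 h.

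The IFIT proteins bind viral RNA, IFIT1 by its lack of the cap modifications of the host, and block its translation. IFIT1, IFIT2 and IFIT3 were higher at 72 h than in both other groups, and IFIT5 was not. Their genes form a cluster on chromosome 10 (GRCh38, plus strand), where the table places IFIT2 (ENSG00000119922) at 89283694-89309271, IFIT3 (ENSG00000119917) at 89327997-89340971, IFIT1 (ENSG00000185745) at 89392546-89406487 and IFIT5 (ENSG00000152778) at 89414568-89420997. IFIT1 had 6.83 and 7.62 FPKM at 72 h and 3.23 and 2.59 FPKM at 48 h, against 3.03 and 2.70 FPKM in Cont. Both 72 h libraries were above the other 4, and the 48 h and Cont libraries overlapped. In recovered reads these are 666 and 777 at 72 h, 269 and 249 at 48 h, and 283 and 222 in Cont. The mean FPKM at 72 h was 252% of that in Cont, a log2 fold change of 1.09 (standard error, SE, 0.11, limma adjusted p = 0.00354), and the change against 48 h was 1.08 (SE 0.11, limma adjusted p = 0.0126). At 48 h the mean was 102% of Cont (limma adjusted p = 0.942). The rise against Cont kept its call under all 18 other settings (limma adjusted p at most 0.0339). Of these, the setting of at least 5 FPKM was passed only through the 72 h libraries, so it adds no support. The call against 48 h was lost without 48 h replicate 1, 48 h replicate 2 or 72 h replicate 2.

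IFIT2, whose product binds IFIT1 and IFIT3 in 1 complex, had 5.70 and 6.56 FPKM at 72 h and 3.46 and 2.57 FPKM at 48 h, against 3.11 and 2.85 FPKM in Cont. The 72 h libraries again lay above all others. It changed by 0.84 on the log2 scale (SE 0.12, limma adjusted p = 0.0104) against Cont and 0.84 (SE 0.12, limma adjusted p = 0.0295) against 48 h. The call against Cont was lost without Cont replicate 2 (limma adjusted p = 0.0545) and without 72 h replicate 2 (limma adjusted p = 0.0588), and that against 48 h without any 1 of the 72 h or 48 h libraries (limma adjusted p between 0.0575 and 0.15). IFIT3, which stabilises the binding of IFIT1 to RNA, had 11.1 and 11.7 FPKM at 72 h and 7.22 and 5.06 FPKM at 48 h, against 7.65 and 5.88 FPKM in Cont. On the same scale IFIT3 changed by 0.69 (SE 0.16, limma adjusted p = 0.0406) against Cont and 0.82 (SE 0.16, limma adjusted p = 0.0481) against 48 h. The groups did not overlap in these comparisons, yet the call against Cont was lost without any 1 of the Cont or 72 h libraries (limma adjusted p between 0.063 and 0.152), and that against 48 h without any 1 library (limma adjusted p between 0.0565 and 0.203). IFIT5, which acts outside the IFIT1 complex, had 7.00 and 7.60 FPKM at 72 h and 6.63 and 6.17 FPKM at 48 h, against 7.74 and 7.87 FPKM in Cont. It was lower at 48 h by a log2 fold change of -0.25 (SE 0.07, limma adjusted p = 0.0483), a call that was lost without any 1 library (limma adjusted p between 0.0642 and 0.203).

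LIPA, the gene of a lysosomal lipase on the opposite strand, is listed from 89213569 to 89414557 in the table, a span that holds IFIT2, IFIT3 and IFIT1. LIPA had 39.5 and 44.2 FPKM at 72 h and 33.7 and 30.7 FPKM at 48 h, against 26.4 and 21.0 FPKM in Cont. Its log2 fold change was 0.80 (limma adjusted p = 0.0111) at 72 h and 0.43 (limma adjusted p = 0.0422) at 48 h against Cont, and 0.37 (limma adjusted p = 0.124) at 72 h against 48 h. In the GENCODE v29 annotation, 10.3% of the exonic bases of IFIT2 are shared with LIPA and the transcript AL353751.1, and 0% of those of IFIT1 and IFIT3 are shared with any gene. The models counted were longer than these exons, by a factor of 1.02 for IFIT1, 1.31 for IFIT2 and 1.16 for IFIT3. Sharing of the added bases with LIPA was not measured. Whether reads were counted by strand is not given in the sources used here, and the part of LIPA reads in the level of IFIT2 was not tested.

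GBP1 (ENSG00000117228, chromosome 1, 89052319-89065230, minus strand), a guanylate-binding GTPase that coats intracellular bacteria and is a classical target of interferon gamma, was lower at both times. GBP1 had 1.67 and 1.25 FPKM at 72 h and 1.41 and 1.07 FPKM at 48 h, against 4.15 and 4.66 FPKM in Cont. All 4 libraries with IGFBP3 siRNA were below both Cont libraries. Recovered reads were 167 and 131 at 72 h, 121 and 106 at 48 h, and 398 and 395 in Cont. The mean FPKM was 33.1% of Cont at 72 h and 28.2% at 48 h. Log2 fold changes were -1.14 (SE 0.12, limma adjusted p = 0.00473) at 72 h and -1.27 (SE 0.12, limma adjusted p = 0.00194) at 48 h. Both calls held under the 17 other settings in which GBP1 was tested. The 72 h and 48 h libraries overlapped (log2 fold change 0.13, limma adjusted p = 0.542).

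**Figure D3:**
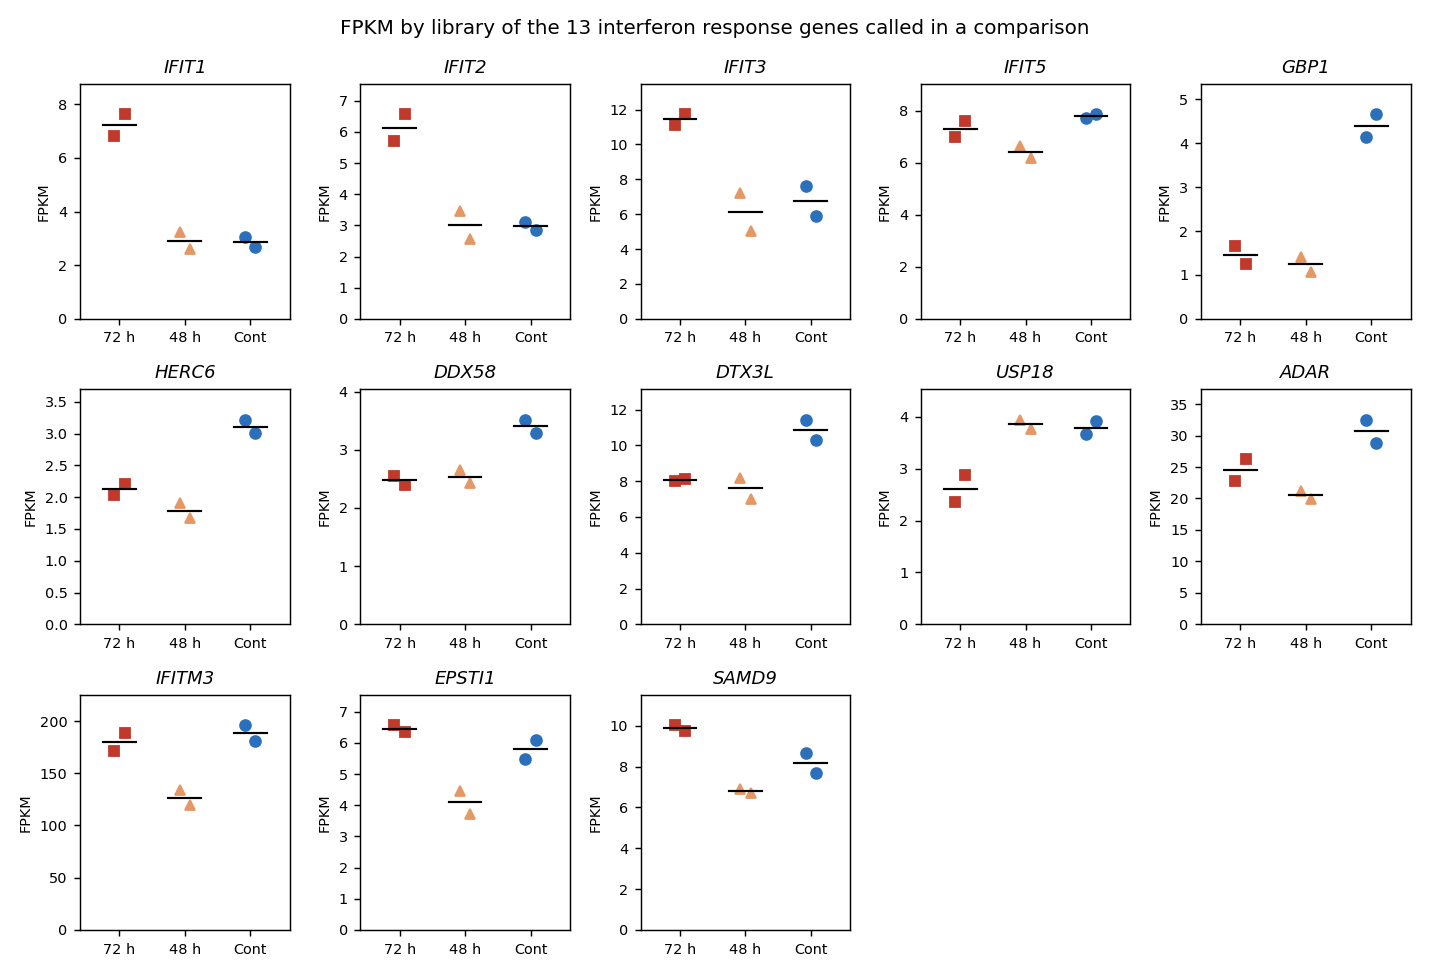
FPKM (vertical axis, from 0) of the 13 interferon response genes called in at least 1 comparison, 1 panel each. Points are libraries at 72 h, at 48 h and in Cont (2 each), and the black line is their mean. IFIT1, IFIT2 and IFIT3 are highest at 72 h, and GBP1 is low in all 4 IGFBP3 siRNA libraries. For IFITM3, EPSTI1, SAMD9, ADAR, HERC6 and IFIT5, both 48 h libraries are the lowest.

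SAMD9, an antiviral factor that blocks translation during poxvirus infection, had 10.02 and 9.74 FPKM at 72 h and 6.88 and 6.70 FPKM at 48 h, against 8.66 and 7.69 FPKM in Cont. The Cont libraries lay between those of the other groups. SAMD9 (ENSG00000205413, chromosome 7, 93099513-93118023, minus strand) was higher at 72 h than at 48 h by a log2 fold change of 0.48 (SE 0.08, limma adjusted p = 0.0323). Against Cont it was called neither at 72 h (0.25, limma adjusted p = 0.0812) nor at 48 h (-0.23, limma adjusted p = 0.0653), though it was called at 48 h with voom on the recovered reads and at 72 h with quantile normalization. The difference between the times was lost without any 1 of the 72 h or 48 h libraries (limma adjusted p between 0.0892 and 0.15). TRIM21, a cytosolic antibody receptor with ubiquitin ligase activity, had 5.68 and 6.03 FPKM at 72 h and 4.49 and 4.85 FPKM at 48 h, against 5.28 and 5.87 FPKM in Cont, and was not called in any comparison.

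Of the same group of effectors, the other 6 genes were not tested. The classical antiviral GTPase genes MX1 and MX2 had 0.069 to 0.233 FPKM and 0.004 to 0.062 FPKM over the 6 libraries. The exonuclease gene ISG20 had 0.517 to 0.918 FPKM and SAMD9L, the neighbour and paralogue of SAMD9, had 0.295 to 0.506 FPKM. CMPK2 and RSAD2, which lie side by side on chromosome 2, had at most 0.023 FPKM and 0 FPKM.

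Among the sensors and effectors of double-stranded RNA, 6 of 9 were tested, and all 6 had log2 fold changes below 0 against Cont at 72 h and at 48 h, as had 59.9% and 55.6% of all tested genes at these times. At 72 h 1 was called lower (16.7%, beside 9.51% of all) and at 48 h 2 were (33.3%, beside 16.5% of all). Of the 6, OAS1 passed the filter only through its Cont libraries, the group where it was highest. ADAR (ENSG00000160710, chromosome 1, 154582057-154628013, minus strand), which edits adenosine to inosine in double-stranded RNA, had 22.8 and 26.2 FPKM at 72 h and 21.1 and 20.0 FPKM at 48 h, against 32.5 and 28.9 FPKM in Cont. Both IGFBP3 siRNA groups were below Cont without overlap. The change was called at 48 h (-0.55, SE 0.10, limma adjusted p = 0.00965) and not at 72 h (-0.31, limma adjusted p = 0.0796), though voom on the recovered reads called ADAR lower at 72 h too. The call at 48 h was lost without 48 h replicate 2 (limma adjusted p = 0.0636). The difference between the times was itself not called (0.24, limma adjusted p = 0.18).

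DDX58 (ENSG00000107201, chromosome 9, 32455302-32526208, minus strand) encodes RIG-I, the helicase that senses RNA with a 5′ triphosphate. It had 2.55 and 2.40 FPKM at 72 h and 2.65 and 2.42 FPKM at 48 h, against 3.52 and 3.29 FPKM in Cont. All 4 IGFBP3 siRNA libraries were below both Cont libraries, over a model whose length was 1.33 times that of its exons in GENCODE v29. DDX58 changed by -0.34 on the log2 scale (SE 0.08, limma adjusted p = 0.0398) at 72 h and -0.32 (SE 0.08, limma adjusted p = 0.0321) at 48 h. Either call was lost without any 1 library, with adjusted p from limma of 0.0597 to 0.168 at 72 h and 0.0517 to 0.145 at 48 h. IFIH1, the gene of the related sensor MDA5, had 1.59 and 1.63 FPKM at 72 h and 1.76 and 1.29 FPKM at 48 h, against 2.00 and 2.16 FPKM in Cont, and was not called.

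EIF2AK2, the gene of the kinase PKR that halts translation on double-stranded RNA, had 11.1 and 10.9 FPKM at 72 h and 11.8 and 11.1 FPKM at 48 h, against 13.2 and 12.6 FPKM in Cont. The groups did not overlap, and the changes were not called (adjusted p = 0.0937 at 72 h and 0.139 at 48 h from limma). OAS3, whose product makes the 2-5A signal for RNase L, had 9.56 and 9.55 FPKM at 72 h and 11.8 and 9.68 FPKM at 48 h, against 14.3 and 11.1 FPKM in Cont. OAS1 of the same family had 0.643 and 0.727 FPKM at 72 h and 0.976 and 0.927 FPKM at 48 h, against 1.62 and 1.04 FPKM in Cont, a log2 fold change of -0.46 at 72 h (limma adjusted p = 0.0777). OAS1 was called lower at 72 h with voom on the recovered reads. It passed the filter only through its Cont libraries, which favours a fall against Cont, so this call is no support for a fall. OAS2, OASL and DHX58 were not tested, with at most 0.16, 0.081 and 0.015 FPKM in any library.

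The transcription factors that carry the interferon signal showed no called change. IRF1, a target and activator of the gamma interferon response, had 7.99 and 9.28 FPKM at 72 h and 7.72 and 6.02 FPKM at 48 h, against 8.32 and 7.09 FPKM in Cont, and all groups overlapped with Cont. In GENCODE v29, 22% of the exonic bases of IRF1 are shared with AC116366.3 and C5orf56. STAT2, a subunit of the ISRE-binding complex, had 3.39 and 3.45 FPKM at 72 h and 3.47 and 3.35 FPKM at 48 h, against 4.58 and 2.88 FPKM in Cont. The Cont libraries of STAT2 lay on either side of the other 4. IRF7, the master regulator of type I interferon genes, had 1.84 and 1.45 FPKM at 72 h and 2.91 and 2.28 FPKM at 48 h, against 2.14 and 1.77 FPKM in Cont, and its difference between the times was -0.44 (limma adjusted p = 0.098). IRF9, the DNA-binding subunit of the complex, was counted at 0 to 3 reads per library, 0 to 0.041 FPKM. In GENCODE v29, 48.4% of the exonic bases of IRF9 are shared with the readthrough transcript AL136295.5, itself at 0.03 to 0.089 FPKM, and reads that fit both may have been left out of either, so the level of IRF9 is uncertain.

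In the ISG15 conjugation system, HERC6 was lower at both times and USP18 at 72 h. HERC6 (ENSG00000138642, chromosome 4, 88378739-88443097, plus strand), a HECT-type ubiquitin ligase whose mouse counterpart is the main ligase for ISG15, had 2.03 and 2.21 FPKM at 72 h and 1.92 and 1.67 FPKM at 48 h, against 3.22 and 3.003 FPKM in Cont. All 4 IGFBP3 siRNA libraries lay below both Cont libraries. The log2 fold change was -0.40 (SE 0.09, limma adjusted p = 0.0341) at 72 h and -0.56 (SE 0.09, limma adjusted p = 0.00737) at 48 h. The call at 48 h held under all 17 other settings in which HERC6 was tested, and that at 72 h was lost without any 1 of the Cont or 72 h libraries (limma adjusted p between 0.0928 and 0.146) and in the fit with a replicate block (limma adjusted p = 0.0539).

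USP18 (ENSG00000184979, chromosome 22, 18150170-18177397, plus strand) removes ISG15 from proteins and dampens signalling from the type I interferon receptor. It had 2.35 and 2.88 FPKM at 72 h and 3.94 and 3.77 FPKM at 48 h, against 3.66 and 3.91 FPKM in Cont. The 72 h libraries were below the other 4, which overlapped. USP18 changed by -0.41 on the log2 scale (SE 0.09, limma adjusted p = 0.0367) at 72 h against Cont, and -0.43 (SE 0.09, limma adjusted p = 0.0567) against 48 h, which was not called. The call against Cont was lost without any 1 library (limma adjusted p between 0.0531 and 0.147). USP18 has a near-identical copy on chromosome 22, and whether reads were split between them is not known.

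TRIM25, the ubiquitin ligase that activates RIG-I, had 19.5 and 21.2 FPKM at 72 h and 20.0 and 19.0 FPKM at 48 h, against 16.9 and 15.9 FPKM in Cont. All 4 IGFBP3 siRNA libraries were above Cont. The log2 fold change of 0.29 at 72 h (SE 0.08, limma adjusted p = 0.0507) was just outside the call and that at 48 h was 0.24 (limma adjusted p = 0.0626). TRIM25 was called higher at 72 h with a pseudocount of 5, at least 5 FPKM, quantile normalization or voom. UBE2L6, the E2 enzyme for ISG15, had 34.1 and 31.96 FPKM at 72 h and 30.1 and 26.1 FPKM at 48 h, against 32.5 and 31.3 FPKM in Cont, and was not called. ISG15 itself had 2.46 to 3.18 FPKM over the 6 libraries, with 46 to 49 reads in each, and a log2 fold change of -0.16 at 72 h (limma adjusted p = 0.284) and -0.06 at 48 h (limma adjusted p = 0.674). HERC5, the human ligase for ISG15, was not tested, with 0.181 to 0.35 FPKM.

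Of the membrane restriction factors, IFITM3 (ENSG00000142089, chromosome 11, 319676-327537, minus strand) was lower at 48 h than in both other groups. Both 48 h libraries lay below the other 4, as its values above show. The log2 fold change was -0.57 at 48 h against Cont (SE 0.09, limma adjusted p = 0.00844), -0.07 at 72 h against Cont (SE 0.09, limma adjusted p = 0.683) and 0.50 at 72 h against 48 h (SE 0.09, limma adjusted p = 0.0415). The call at 48 h was lost without 48 h replicate 2 (limma adjusted p = 0.0582), and that between the times without any 1 library (limma adjusted p between 0.0559 and 0.202). IFITM2, a close paralogue, had 1.51 and 1.47 FPKM at 72 h and 1.03 and 0.477 FPKM at 48 h, against 0.853 and 0.855 FPKM in Cont. The 72 h libraries were above the other 4, but the changes were not called (0.43 against Cont, adjusted p = 0.126, and 0.52 against 48 h, adjusted p = 0.101, from limma). IFITM1, which acts at the cell surface, had 0.347 and 0.269 FPKM at 72 h and 0.076 and 0.241 FPKM at 48 h, against 0.204 and 0.231 FPKM in Cont, and was not tested. The levels of IFITM1 and IFITM2 are uncertain because these genes share exonic bases with each other in GENCODE v29 (32.5% of IFITM1 and 22.7% of IFITM2) and the IFITM coding sequences are much alike. IFITM3 shares 21.3% of its exonic bases with the transcript AC136475.5, so its level is uncertain too. The model of IFITM1 was 2.07 times as long as its exons there. BST2, the gene of tetherin, which holds budding viruses at the cell surface, had 0 to 0.168 FPKM.

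PARP9 and DTX3L encode 2 proteins that form a complex of ADP-ribosyltransferase and ubiquitin ligase, and their genes lie head to head on chromosome 3. DTX3L (ENSG00000163840, chromosome 3, 122564338-122575203, plus strand) had 8.02 and 8.12 FPKM at 72 h and 8.20 and 7.02 FPKM at 48 h, against 11.4 and 10.3 FPKM in Cont. PARP9, on the minus strand, had 6.10 and 6.84 FPKM at 72 h and 5.58 and 5.03 FPKM at 48 h, against 6.04 and 5.999 FPKM in Cont. All 4 IGFBP3 siRNA libraries of DTX3L were below Cont, and those of PARP9 lay on either side of it. DTX3L was lower by a log2 fold change of -0.39 (SE 0.09, limma adjusted p = 0.0387) at 72 h and -0.47 (SE 0.09, limma adjusted p = 0.0138) at 48 h, and PARP9 was not called (0.09 at 72 h and -0.16 at 48 h). Whether the change of DTX3L differed from that of PARP9 was not tested. The call for DTX3L at 72 h was lost without any 1 of the Cont or 72 h libraries (limma adjusted p between 0.0761 and 0.151), and that at 48 h without Cont replicate 1 (limma adjusted p = 0.0675) or 48 h replicate 2 (limma adjusted p = 0.0742). SP100, a component of nuclear bodies, had 6.28 and 5.47 FPKM at 72 h and 6.62 and 6.11 FPKM at 48 h, against 5.32 and 5.23 FPKM in Cont, and was not called. The nuclear body organiser gene PML had 4.70 to 6.06 FPKM and PARP14, a relative of PARP9, had 3.94 to 5.65 FPKM over the libraries, neither called.

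EPSTI1 (ENSG00000133106, chromosome 13, 42886388-42992271, minus strand), named for its induction in breast epithelium by stromal cells, had 6.57 and 6.35 FPKM at 72 h and 4.47 and 3.73 FPKM at 48 h, against 5.48 and 6.11 FPKM in Cont. As for IFITM3, both 48 h libraries were the lowest. EPSTI1 was lower at 48 h than in Cont (-0.42, SE 0.09, limma adjusted p = 0.0219) and higher at 72 h than at 48 h (0.55, SE 0.09, limma adjusted p = 0.0357), with no call at 72 h against Cont (0.14, limma adjusted p = 0.386). The call at 48 h was lost without either Cont library or 48 h replicate 2 (limma adjusted p between 0.0502 and 0.106), and that between the times without any 1 library (limma adjusted p between 0.0518 and 0.158). The summed epithelial markers given above were also lowest at 48 h, but not every marker was. KRT5 had a mean of 263 FPKM at 72 h, 122 at 48 h and 272 in Cont, and KRT17 had 89.9, 37.4 and 150. EPCAM was lowest at 72 h (93.1 FPKM, with 102 at 48 h and 118 in Cont), and TP63 and CDH1 were not called. The sum thus follows the keratins. Its part in the low levels of IFITM3, EPSTI1, SAMD9, ADAR, HERC6 and IFIT5 at 48 h was not tested.

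Among the other interferon induced genes, LGALS3BP had 101 and 105 FPKM at 72 h and 96.7 and 87.0 FPKM at 48 h, against 94.5 and 90.3 FPKM in Cont. IFI6, whose product limits flavivirus replication at the endoplasmic reticulum, had 14.8 and 17.4 FPKM at 72 h and 13.5 and 11.2 FPKM at 48 h, against 15.2 and 16.3 FPKM in Cont. IFI35 had 6.86 and 7.20 FPKM at 72 h and 6.67 and 5.84 FPKM at 48 h, against 6.98 and 6.15 FPKM in Cont. These 3 genes were not called, the smallest adjusted p from limma against Cont being 0.0771 for IFI6 at 48 h (log2 fold change -0.33). IFI44 had 0.554 to 1.03 FPKM and was not tested, and IFI44L, IFI27 and XAF1 had at most 0.129, 0.08 and 0.007 FPKM. XAF1 shares 38.3% of its exonic bases in GENCODE v29 with the gene PRAL, so its level is uncertain.

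A further 71 genes of the pathway, none of them among the 49, were looked at, of which 43 were tested. Of the 71, 36 are other interferon induced genes (24 tested), and the rest are interferons, receptors, kinases, sensing factors and negative regulators. At 48 h 10 were lower (23.3%), 5 of them among the 36, and 4 higher (9.3%), at 72 h 4 were lower (9.3%) and 2 higher (4.7%), and at 72 h against 48 h 0 were lower and 1 higher (2.3%), beside the shares of all tested genes given above. Of 9 interferon genes, 7 had 0 reads in every library, IFNB1 had 2 reads in 1 of the 48 h libraries, and IFNE, a type I interferon of epithelia, had 33 reads in all. The limit that 0 reads allow was at most 0.223 FPKM for these genes.

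Among the receptors and kinases, IFNAR1, the type I interferon receptor chain, had 8.03 and 7.43 FPKM at 72 h and 6.99 and 6.66 FPKM at 48 h, against 9.96 and 9.96 FPKM in Cont. It was lower at 72 h (log2 fold change -0.33, limma adjusted p = 0.0296) and at 48 h (-0.49, limma adjusted p = 0.00554). The kinase gene JAK1 was lower at 48 h (-0.26, limma adjusted p = 0.03), and IFNLR1, the receptor chain for type III interferon, was higher at 48 h (0.36, limma adjusted p = 0.0462). The partner chains IFNAR2 and IL10RB were not tested, and 83.2% and 38.1% of their exonic bases are shared with a readthrough transcript and, for IFNAR2, a divergent transcript, so their levels are uncertain.

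Among the sensing factors, IRF3, the factor that RIG-I signalling activates, was lower at 72 h (-0.39, limma adjusted p = 0.0229) and 48 h (-0.34, limma adjusted p = 0.0211). PRKRA, an activator of PKR, was lower at 72 h (-0.38, limma adjusted p = 0.0262) and 48 h (-0.46, limma adjusted p = 0.00905), and the kinase gene IKBKE was lower at 48 h (-0.38, limma adjusted p = 0.0352). PTPN2, a phosphatase that removes phosphate from JAK1, was the one negative regulator called, higher at 72 h (0.31, limma adjusted p = 0.031) and 48 h (0.42, limma adjusted p = 0.00762). Of 24 other tested genes known to respond to interferon, SAMHD1, a hydrolase of deoxynucleotides, was lower at 72 h (-0.43, limma adjusted p = 0.0334) and 48 h (-0.42, limma adjusted p = 0.0222). TDRD7, PLSCR1, SLFN5 and IRF2 were lower at 48 h and PNPT1 and PARP12 were higher at 48 h, with log2 fold changes from -0.56 for TDRD7 to 0.34 for PNPT1.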

How the data were processed

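Total RNA of the 6 libraries was extracted with a column kit and sequenced on a DNBSEQ instrument. Alignment by the authors was done with HISAT2 2.0.1, and the deposited table holds FPKM to 3 decimals per gene model. The submitters' processing notes also name HTSeq 0.6.1, DESeq2 (with no version) and GRCh38. The annotation release, strand handling and filters are not given in the sources used here. Gene models that have no name (6831) did not enter the fit. From the FPKM, log2(FPKM + 1) was fitted in R 4.3.3 by limma 3.58.1 with a mean for each group, no replicate block and a variance trend, for genes with at least 1 FPKM in at least 2 of the 6 libraries. Low FPKM were whole multiples of 1 read within 0.1 read (100% of values), and these steps gave reads and depth. All libraries differed by more than sampling noise. Exon sharing was measured on GENCODE v29, and promoters are from RefSeq (GRCh38.p14). Tables were made in Python 3.11.15 (pandas 2.3.3, numpy 2.4.6).

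The 49 genes, the role and pathway lists and the alternatives were chosen with earlier results of these data known. Values of every library are given for genes called in at least 1 comparison and for the 3 genes of each role with the highest mean FPKM, and other members by range or, for OAS1, IFIH1 and IFITM1, also by library. Alternatives were pseudocounts of 0.1 and 5, no filter, at least 5 FPKM, TPM, quantile normalization, fits on the groups compared, the replicate number as a block, no variance trend, voom on the recovered reads, unnamed models included, an absolute log2 fold change of at least 0.5, and each library left out in turn. A lone library left in a group was taken to vary as the other groups do.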

Additional observations from a re-analysis of the deposited data

Results flagged for a closer look

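For 6 of the interferon response genes the change against Cont at 72 h differed from that at 48 h, tested as the difference between the 72 h and 48 h groups in the same fit. IFIT1 differed by 1.08 on the log2 scale, with a change of 1.09 at 72 h and 0.01 at 48 h. IFIT2 differed by 0.84 (0.84 at 72 h and 0.005 at 48 h) and IFIT3 by 0.82 (0.69 at 72 h and -0.13 at 48 h). EPSTI1 differed by 0.55 (0.14 at 72 h and -0.42 at 48 h), IFITM3 by 0.50 (-0.07 at 72 h and -0.57 at 48 h) and SAMD9 by 0.48 (0.25 at 72 h and -0.23 at 48 h). The IFIT genes thus differed by a higher level at 72 h, and IFITM3 and EPSTI1 by a lower level at 48 h. The limma adjusted p was 0.0126 for IFIT1 and 0.0295 to 0.0481 for the other 5. None of the 6 differences kept its call without 48 h replicate 1, 48 h replicate 2 or 72 h replicate 2 taken singly, and without 72 h replicate 1 only that of IFIT1 did. Without either Cont library, IFIT1, IFIT2 and SAMD9 kept theirs. The parts of time, of the exchanged medium and of the weaker knockdown of IGFBP3 at 72 h cannot be told apart.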

How the results depend on the processing

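Of the 389 single-gene values recomputed under another setting, 257 kept their call, 132 lost it and 0 changed direction. Several settings, such as no filter, a replicate block or no variance trend, leave the log2 fold change itself the same, so its direction could not change under them. Without a filter, the interferon response genes called were 4 lower at 48 h, 1 lower and 1 higher at 72 h, and 0 higher at 72 h against 48 h (all genes: 1009 lower and 423 higher, 274 and 97, and 8 and 10). With at least 5 FPKM, 5 were lower at 48 h and 1 at 72 h (all genes: 1224 and 680 lower). There 4 were higher at 72 h and 6 at 72 h against 48 h (all genes: 285 and 301 higher). GBP1, HERC6, DDX58 and USP18 were no longer tested there, and IFIT1 and IFIT2 passed that filter only through their 72 h libraries. An absolute log2 fold change of at least 0.5 left 4 lower at 48 h and 1 lower at 72 h (all genes: 839 lower and 322 higher, 515 and 183, and 127 and 159). Quantile normalization gave 6 lower and 2 higher at 48 h. At 72 h it gave 1 lower and 5 higher (all genes: 675 lower at 72 h). Fits on the groups compared gave 3 lower at 72 h and 3 higher at 72 h against 48 h (all genes there: 103 lower and 147 higher). With unnamed models included these were 2 and 1 (37 lower and 61 higher). Voom on the recovered reads gave 8 lower and 2 higher at 48 h, 7 lower and 4 higher at 72 h, and 6 higher at 72 h against 48 h. For all genes it gave 2141 lower and 1180 higher at 48 h, 1412 and 570 at 72 h, and 554 and 599 at 72 h against 48 h.

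With the replicate number as a block, 3 of the 6 genes stayed higher at 72 h against 48 h (all genes: 73 lower and 104 higher). The labels do not say whether these numbers pair the samples. The replicate differences correlated at -0.123 between 72 h and 48 h, 0.159 between 72 h and Cont and -0.00322 between 48 h and Cont. Such weak correlations do not settle it. Leaving out 1 library, the interferon response genes lower at 48 h were 2 to 6 (all genes 728 to 1608, with 295 to 786 higher), those at 72 h 1 to 3 lower and 1 to 3 higher (all genes 284 to 772 and 92 to 276), and those higher at 72 h against 48 h 0 to 3 (all genes 0 to 99 lower and 0 to 148 higher). With 2 libraries per group, most calls of these genes were lost in some fit with 1 library left out. Such a fit also has less power, so a lost call does not show that it rests on that library. Some calls, such as that of DDX58 at 48 h against Cont, were lost without a library outside the comparison, which leaves the log2 fold change the same. GBP1 at both times, HERC6 at 48 h and IFIT1 at 72 h against Cont kept their calls under every setting in which they were tested. For IFIT1, the setting of at least 5 FPKM is no support, since only its 72 h libraries passed it. Of the tested genes, 10 averaged under 5 FPKM in every group, where the pseudocount draws fold changes toward 0.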

Other observations

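Other guanylate-binding protein genes lie next to GBP1 on chromosome 1. GBP3 had 8.59 and 8.49 FPKM at 72 h and 5.26 and 6.33 FPKM at 48 h, against 6.21 and 5.46 FPKM in Cont. It was higher at 72 h than in Cont (log2 fold change 0.48, limma adjusted p = 0.0271) and than at 48 h (0.49, limma adjusted p = 0.0481), and was not called at 48 h (-0.01, limma adjusted p = 0.95). GBP2, too low to be tested and picked after its values were seen, had 53 and 65 reads at 72 h and 19 and 17 reads at 48 h, against 97 and 72 reads in Cont. Whether GBP3 and GBP1 differ in their changes was not tested, and these genes are alike in sequence, so reads may have been split between them.

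Of the members too low to be tested, MX2 had 4 and 3 reads at 72 h and 1 and 3 reads at 48 h, against 16 and 10 reads in Cont. IFI44L had 3 and 3 reads at 72 h and 12 and 9 reads at 48 h, against 17 and 23 reads in Cont. Other low members went the other way, among them HERC5, with 29 and 29 reads at 72 h and 29 and 34 reads at 48 h, against 21 and 15 reads in Cont. All of these were picked after their values were seen and have no test.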
